A study of Rattus norvegicus with 35 samples.

Results

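Motile cilium genes were followed in the lungs of carbon nanotube-exposed rats. The set was defined by gene name: every non-control probe whose name started with Dnah, Dnai, Dnaaf, Tekt, Rsph, Cfap or Ift plus a digit, together with Foxj1, Foxn4, Dynlrb2, Tppp3, Mcidas, Ccno, Spag6 and Spag17. This gave 82 of the 34766 gene names on the array, and 79 of them were kept among the 24468 names that were well above background on at least 5 of 35 arrays. Of the 79, 74 were well above background on all 35 arrays; Dnah17, Mcidas and Cfap97d1 were not kept.

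The study measured RNA from the accessory lobe of the lung of 35 female Sprague Dawley rats, 1 Agilent one-colour array per rat, with rats 12 weeks old at the first instillation. There were 18 Wild Type rats (WT) and 17 rats labelled as GMO and heterozygous for p53 (p53het); the labels do not say how that allele was made. Each genotype had 6 rats given the vehicle, Pluronic, 6 given Mitsui-7, and 6 (WT) or 5 (p53het) given NM-403. Both materials are carbon nanotubes of the multi-walled kind, and were instilled into the trachea once a week for 4 weeks at 0.25 mg per rat. All lungs were taken 3 days after exposure, and the labels do not say whether the dose is per instillation or in total. The accessory lobe holds airways as well as alveoli, and RNA of the whole lobe was measured, so more ciliated cells and more cilium RNA per cell cannot be told apart.

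Motile cilia are carried in large numbers by the multiciliated cells of the airway lining and move mucus out of the lung. A new multiciliated cell first switches on regulators (the geminin relatives Gmnc and Mcidas, then Foxj1 and RFX factors), multiplies its centrioles, which dock as basal bodies, and then builds axonemes. The axoneme carries outer and inner dynein arms that generate the beat and radial spokes and a central pair that coordinate it, and its parts arrive by intraflagellar transport.

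Levels are log2 signals relative to each array's own 75th percentile; a level can be set against other arrays for the same gene, not against another gene. Differences are log2 differences between group means with their standard error (SE), from limma fitted over all 24468 genes, and a gene rose or fell where the Benjamini-Hochberg adjusted p was under 0.05. Between 66.1% and 86.4% of spots per array were well above background. The arrays lay on 5 slides, with each group spread over 4 or 5 of them, so that slide did not coincide with group. On slides that held both groups, the median of the 79 cilium genes differed from control by 0.14 to 0.52 for WT Mitsui-7 on 4 slides and by 0.05 to 0.20 for p53het Mitsui-7 on 5 slides. Markers that define ciliated cells outside the name rule were present: 30 of 32 were well above background on all arrays.

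Promoters of the cilium genes are shown first, because they show what part of the set shares in sequence that the name rule did not use. RefSeq (GRCr8) gave the 250 bases before the transcription start for 67 of the 82 genes. RFX factors bind the X-box, whose half-site is GTTGCC. Searched on both strands, GTTGCC was found in 24 of the 67 promoters (35.8%), against 10.8% of all 27457 genes with a promoter of this length. The forkhead core TGTTTAC, which shares no overlap with it, was in 4 of 67 (5.97%) against 3.54%. GTTGCC stood in 7 of the 23 promoters of genes that rose with Mitsui-7 in WT rats (30.4%) and in 16 of the 41 promoters of genes tested there that did not pass (39%). The motif was therefore no more frequent among the genes that rose. Below are the promoters of the 4 cilium genes with the smallest adjusted p for Mitsui-7 in WT rats, each 250 bases long and ending at the base before the start, with the half-site match, on either strand, in capitals. Ccno lies on chr2:46363824-46364073 (+ strand), with a half-site 249 to 244 bases before the start. Foxn4 lies on chr12:48000007-48000256 (+ strand) and has neither motif in the window. Dnai2 lies on chr10:100258772-100259021 (+ strand) and Tekt1 on chr10:57479122-57479371 (- strand), with half-sites 55 to 50 and 39 to 34 bases before the start.
Ccno: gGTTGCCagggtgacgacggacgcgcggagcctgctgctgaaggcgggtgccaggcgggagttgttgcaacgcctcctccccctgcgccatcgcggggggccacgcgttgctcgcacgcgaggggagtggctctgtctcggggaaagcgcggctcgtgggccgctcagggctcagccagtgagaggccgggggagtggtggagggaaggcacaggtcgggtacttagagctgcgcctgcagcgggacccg
Foxn4: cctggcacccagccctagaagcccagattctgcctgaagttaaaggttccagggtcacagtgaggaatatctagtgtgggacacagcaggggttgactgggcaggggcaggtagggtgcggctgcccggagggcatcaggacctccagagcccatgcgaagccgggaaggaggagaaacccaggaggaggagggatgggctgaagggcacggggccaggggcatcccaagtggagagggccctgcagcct
Dnai2: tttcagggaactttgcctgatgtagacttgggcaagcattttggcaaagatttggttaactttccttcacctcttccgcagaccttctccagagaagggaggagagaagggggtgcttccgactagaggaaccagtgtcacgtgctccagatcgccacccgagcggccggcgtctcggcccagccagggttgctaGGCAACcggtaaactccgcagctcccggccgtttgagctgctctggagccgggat
Tekt1: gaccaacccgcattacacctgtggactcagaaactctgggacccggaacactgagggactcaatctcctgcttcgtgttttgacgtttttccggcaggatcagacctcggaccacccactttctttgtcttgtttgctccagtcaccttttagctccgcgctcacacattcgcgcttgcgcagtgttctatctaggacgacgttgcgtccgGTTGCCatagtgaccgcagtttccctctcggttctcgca

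Cilium genes rose in WT lungs with Mitsui-7. Of the 79 genes, 32 rose and 0 fell, against 8.41% higher and 5.56% lower among all genes tested. Other settings called 1 or 2 lower: quantile scaling gave 27 higher and 2 lower, array medians 28 and 1, array weights 35 and 1, and slide as a fixed or random block 45 and 1. Residuals correlated at 0.223 on average between arrays of 1 slide and at -0.082 between slides, and the slide is not in the fit reported here. The median difference of the 79 was 0.37, against 0.03 over all genes, and 71 of the 79 lay above 0. In 18 of the 79, every Mitsui-7 rat lay above every control rat, which held for 4.52% of all genes. The mean level over the 79 genes ran from -2.53 to -2.19 in WT controls (median -2.47) and from -2.22 to -1.77 with Mitsui-7 (median -2.01), so the groups overlapped slightly. Among the 74 genes above background on all arrays 29 rose, with a median of 0.36. The differences were uneven: Foxn4 rose by 3.00 and Ccno by 1.61, and no other member by more than the 1.06 of Dnai2.

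In p53het lungs 16 cilium genes rose with Mitsui-7 and 1 fell, against 5.29% higher and 6.29% lower among all genes. In 9 of the 79, every Mitsui-7 rat lay above every control rat, which held for 2.73% of all genes. The median difference was 0.16, against -0.02 over all genes. Of the 74 genes above background on all arrays 13 rose and 1 fell, with a median of 0.14. All 16 that rose in p53het rats were among the 32 that rose in WT rats, which is 50% of the WT list and 100% of the p53het list. The number past the threshold moved between 10 and 25 with the processing, and was 9 in the authors' values, which hold only 37 of the cilium genes. At least 1 setting ended the p53het calls of Dynlrb2, Dnai2, Tekt4, Ift80, Ift22 and Cfap157 (highest adjusted p from 0.061 to 0.12). The calls of Cfap300, Cfap53 and Cfap57 were not followed gene by gene through the settings. With NM-403, 2 genes rose in WT rats (3.2% of all genes passed, 2.3% higher and 0.899% lower) and 1 in p53het rats (1.52% of all genes passed, 1.27% higher and 0.253% lower), and none fell. The NM-403 medians of the 79 genes were 0.09 and 0.02, against -0.0016 and -0.076 over all genes. Every NM-403 rat lay above every control rat for 1 of the 79 genes in each genotype, Foxn4, against 1.77% of all genes in WT and 1.16% in p53het rats. At an unadjusted p under 0.05 the numbers were 49 of 79 for WT Mitsui-7 (62%, against 27.2% of all genes) and 29 for p53het Mitsui-7 (36.7% against 24.9%). With NM-403 they were 11 in WT rats (13.9% against 15.1%), near the share of all genes, and 6 in p53het rats (7.59% against 12%). The counts by family and list below stand against the shares of all genes at the adjusted threshold. For Mitsui-7 these were 8.41% higher and 5.56% lower in WT rats, and 5.29% and 6.29% in p53het rats. Small counts can lie near them.

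**Figure D1:**
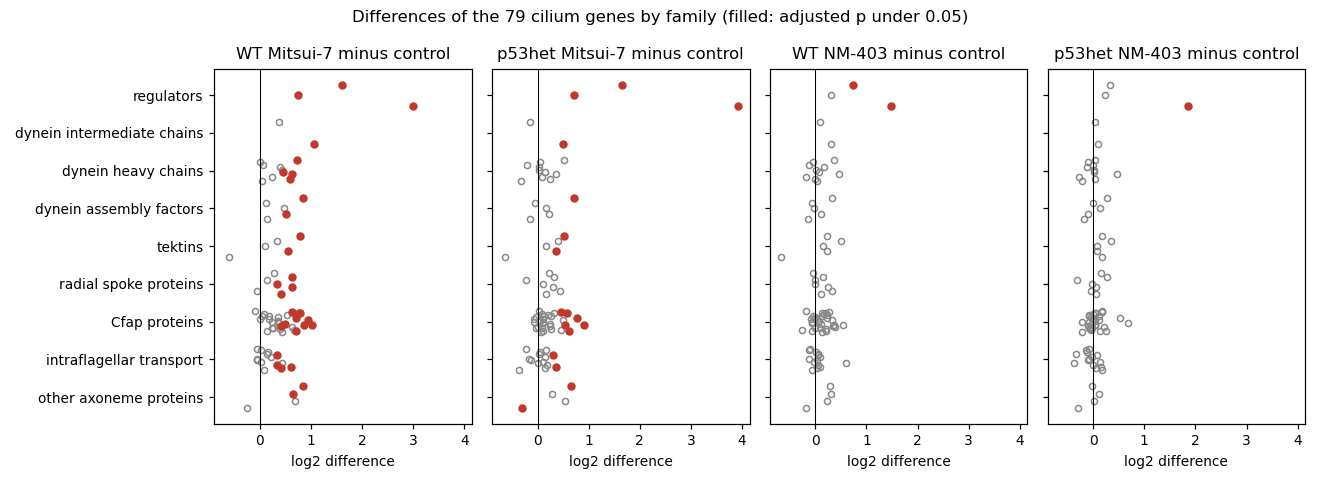
Log2 differences from the genotype's own control (x axis) for the 79 cilium genes, 1 point per gene, in rows by family; filled points passed an adjusted p of 0.05. Filled points number 32 for WT Mitsui-7, 17 for p53het Mitsui-7, 2 for WT NM-403 and 1 for p53het NM-403, with Foxn4 farthest to the right in each panel.

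Of the 3 regulators tested, Foxn4 and Ccno had the largest differences of all members with Mitsui-7 in WT rats. Foxj1 (0.75) rose less than Dnai2 (1.06). Foxn4, a forkhead factor that acts beside Foxj1 in multiciliated cells of frog embryos, had levels of -6.67 to -5.14 in WT controls (median -5.92). It reached -3.31 to -2.24 (median -2.91) with Mitsui-7 and -5.02 to -3.74 (median -4.40) with NM-403. All WT rats given either nanotube lay above all WT controls, and all Mitsui-7 rats above all NM-403 rats. The p53het controls ran from -7.18 to -5.72 (median -6.44) and the p53het Mitsui-7 rats from -2.86 to -2.13 (median -2.52). The 5 p53het NM-403 rats had -5.21, -5.01, -4.60, -4.28 and -3.94, above every p53het control and below every p53het Mitsui-7 rat. Foxn4 rose by 3.00 ± 0.26 (SE), 8.02-fold, with Mitsui-7 in WT rats (adjusted p = 8.0e-10) and by 3.92 ± 0.26 in p53het rats (adjusted p = 2.4e-12), where only 3 of the 6 controls were above background, so that no fold is given and the size is uncertain. With NM-403 it rose by 1.49 ± 0.26 in WT (adjusted p = 0.00072) and 1.86 ± 0.28 in p53het rats (adjusted p = 0.00019). With normexp background correction the 4 differences were smaller, 1.57, 1.86, 0.67 and 0.42 in the order given, the last with an adjusted p of 0.22.

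Ccno encodes cyclin O, which is needed to multiply centrioles in multiciliated cells. Its levels ran from -4.22 to -3.33 (median -4.04) in WT controls, -2.46 to -1.99 (median -2.28) with Mitsui-7 and -3.54 to -2.78 (median -3.11) with NM-403. In p53het rats they ran from -4.30 to -3.47 (median -3.81) in controls and -2.49 to -1.97 (median -2.23) with Mitsui-7, while NM-403 gave -4.34, -3.55, -3.53, -3.34 and -3.01. The Mitsui-7 rats thus stood clear of the controls in both genotypes, and the NM-403 rats overlapped them. Ccno rose by 1.61 ± 0.18 (adjusted p = 1.1e-07) with Mitsui-7 in WT rats and by 1.65 ± 0.18 (adjusted p = 1.1e-07) in p53het rats. With NM-403 it rose by 0.74 ± 0.18 in WT rats (adjusted p = 0.017), a call lost when only these 2 groups were fitted (adjusted p = 0.073) or WT control replicate 3 was left out (0.67, adjusted p = 0.055), and the p53het difference of 0.33 ± 0.19 did not pass (adjusted p = 0.52).

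Foxj1, the factor that switches on the motile cilium programme, ran from -1.02 to -0.34 (median -0.77) in WT controls and -0.36 to 0.43 (median -0.03) with Mitsui-7. In p53het rats it ran from -1.02 to -0.70 (median -0.80) in controls and -0.34 to 0.12 (median -0.12) with Mitsui-7. The ranges overlapped slightly in WT rats and did not overlap in p53het rats. Foxj1 rose by 0.75 ± 0.12 (adjusted p = 3.4e-05) in WT and 0.71 ± 0.12 (adjusted p = 0.00010) in p53het rats with Mitsui-7, and did not pass with NM-403 (0.30 ± 0.12 and 0.23 ± 0.13). These values are from the brighter of its 2 probes; the dimmer one, also above background on all arrays, differed by 0.04 in WT and -0.04 in p53het rats, and the mean of both gave 0.40 and 0.34, still past the threshold. Mcidas, a coactivator at the head of the programme, was above background on 1 array, from a WT Mitsui-7 rat, and was not tested. Its highest level was in WT Mitsui-7 replicate 5 (-4.807, next -7.273). In the same rat Cfap97d1, also not kept, stood apart from the rest of its group (-4.993, next -8.31). Whether that array was unusual for dim genes was not tested, so no rise of Mcidas is read from it.

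**Figure D2:**
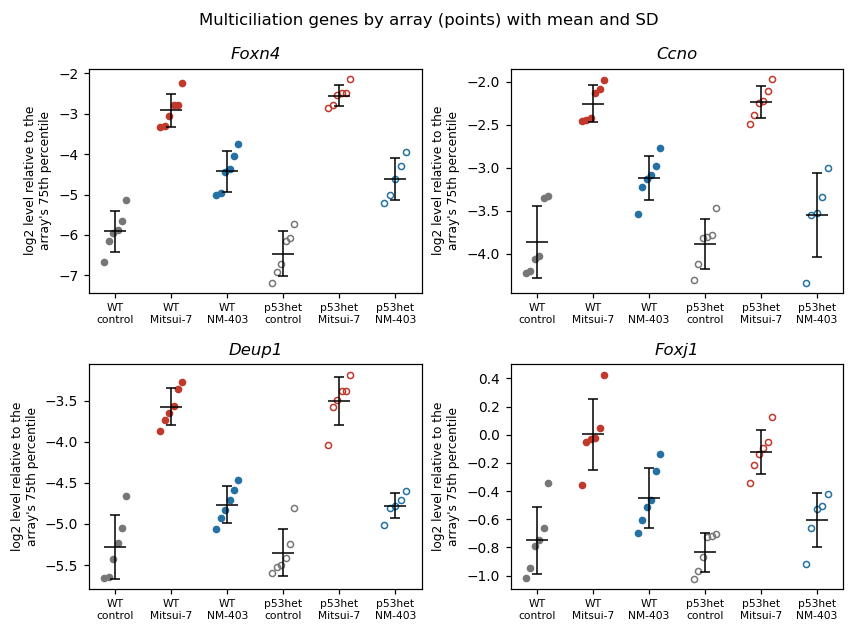
Levels (y axis, log2 relative to the array's 75th percentile) of Foxn4, Ccno, Deup1 and Foxj1 in each of the 35 rats by group, with mean and SD. The Mitsui-7 rats lie above all controls of their genotype for Foxn4, Ccno and Deup1, and NM-403 rats lie between for Foxn4.

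Other genes for centriole multiplication and multiciliation came from a list outside the name rule; 19 of 21 were tested. Of these 6 rose with Mitsui-7 in WT rats and 4 in p53het rats, against 8.41% and 5.29% of all genes, and none fell. With NM-403, 2 and 1 rose, against 2.3% and 1.27% of all genes. Deup1, the scaffold of the deuterosomes on which multiciliated cells make centrioles, ran from -5.66 to -4.66 (median -5.33) in WT controls and -3.87 to -3.28 (median -3.60) with Mitsui-7. It rose by 1.71 ± 0.16 (adjusted p = 2.0e-09) in WT and 1.84 ± 0.16 (adjusted p = 5.7e-10) in p53het rats, and its NM-403 differences of 0.52 and 0.57 did not pass (adjusted p = 0.064 and 0.079). Plk4 and Stil, which start centriole duplication in dividing cells too, rose by 1.33 and 2.39 in WT and 1.18 and 1.90 in p53het rats with Mitsui-7, and by 0.78 and 1.68 in WT rats with NM-403. Beside them, all 20 of a list of mitotic genes rose with Mitsui-7 in WT rats, 18 in p53het rats, and 17 and 15 with NM-403; what part of the centriole gene differences goes with dividing cells was not tested. Gmnc, at the head of the programme, differed by 0.64 ± 0.23 and 0.60 ± 0.23 with Mitsui-7 and did not pass (adjusted p = 0.056 and 0.085). The RFX factors Rfx2 and Rfx3 differed by -0.05 and 0.16 in WT Mitsui-7 rats, and neither passed. In the Notch pathway, whose signal holds airway cells back from the ciliated fate, Notch1 fell by 0.60 in both genotypes and its target Nrarp fell by 0.58 in WT and 0.82 in p53het rats with Mitsui-7, 2 of 11 genes tested. RNA came from all cells of the lobe, and a link of these falls with the cilium genes was not tested.

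Dynein genes moved unevenly. Of the intermediate chains of the outer arm, Dnai2 ran from -2.85 to -2.19 (median -2.52) in WT controls and from -1.73 to -1.21 (median -1.52) with Mitsui-7, with no overlap. The p53het controls ran from -2.73 to -2.22 (median -2.45) and p53het Mitsui-7 rats from -2.29 to -1.65 (median -1.94), which overlapped. Dnai2 rose by 1.06 ± 0.14 in WT (2.09-fold, adjusted p = 1.5e-06) and 0.50 ± 0.14 in p53het rats (adjusted p = 0.015). Its partner Dnai1 did not pass in either (0.37 ± 0.17 and -0.15 ± 0.17).

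Of 10 heavy chains tested, the motors themselves, 4 rose with Mitsui-7 in WT rats and 0 in p53het rats. Dnah7, an inner-arm motor, ran from -3.73 to -3.44 (median -3.65) in WT controls and -3.34 to -2.54 (median -3.05) with Mitsui-7, and rose by 0.59 ± 0.15 (adjusted p = 0.0066). Dnah1, Dnah3 and Dnah2 rose by 0.74, 0.63 and 0.46, and these too belong to inner arms. The outer-arm motors Dnah5, Dnah9 and Dnah11 differed by 0.23 ± 0.18, 0.05 ± 0.14 and 0.06 ± 0.12 in WT rats and by 0.08, -0.32 and -0.21 in p53het rats, and none passed. Dnah10, an inner-arm motor, had the smallest difference, 0.01 ± 0.15. This grouping by arm was made after the values were seen, and the difference between arms was not tested.

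Among the 5 dynein assembly factors, which fold and preassemble dyneins in the cytoplasm, Dnaaf1 ran from -4.40 to -3.60 in WT controls and from -3.64 to -2.86 with Mitsui-7. It rose by 0.84 ± 0.14 (adjusted p = 6.1e-05) in WT and 0.72 ± 0.14 (adjusted p = 0.00063) in p53het rats. Dnaaf4 rose by 0.51 ± 0.16 in WT rats (adjusted p = 0.032), a call that quantile or median scaling and normexp correction, among others, ended. Dnaaf3 (0.47, adjusted p = 0.058) and Dnaaf2 (0.13) did not pass. On a list of 8 assembly factors outside the name rule, 4 rose in WT and 3 in p53het rats, among them Zmynd10 (0.54 and 0.42) and Lrrc6 (1.05 and 0.79). Of 8 genes for the docking of the arms and the molecular rulers that space them, 5 rose in WT rats: Ccdc103 by 1.21, Ccdc151 by 0.78, Ccdc40 by 0.60, Ccdc39 by 0.53 and Ttc25 by 0.35. In p53het rats 1 of the 8 rose, Ccdc103, by 0.91, where 5.29% of all genes were higher.

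**Figure D3:**
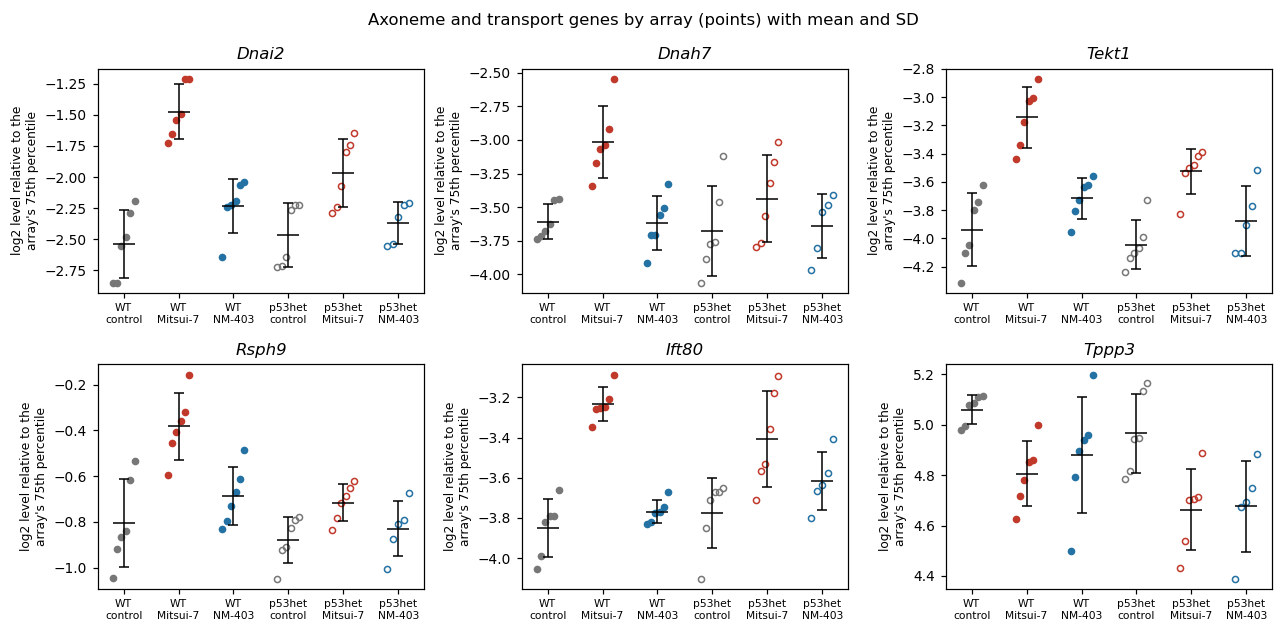
Levels (y axis, log2 relative to the array's 75th percentile) of 6 axonemal and transport genes in each rat by group, with mean and SD. For Dnai2, Dnah7, Tekt1 and Ift80 every WT Mitsui-7 rat lies above every WT control, while Tppp3 lies lower with Mitsui-7 than in controls on average.

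Tektins line the inside of the axonemal tubules. Tekt1 ran from -4.31 to -3.62 (median -3.92) in WT controls and -3.44 to -2.87 (median -3.10) with Mitsui-7. It rose by 0.80 ± 0.12 (adjusted p = 1.6e-05) in WT and 0.52 ± 0.12 (adjusted p = 0.0036) in p53het rats. Tekt4 rose by 0.55 ± 0.11 and 0.36 ± 0.11 (adjusted p = 0.00074 and 0.031). Tekt2 and Tekt3 did not pass, and Tekt5, known mainly from sperm, had negative differences in both genotypes that did not pass either (-0.61 ± 0.27 and -0.63 ± 0.27).

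Of 7 radial spoke genes 4 rose in WT rats and 0 in p53het rats. Rsph9, a spoke head protein, ran from -1.05 to -0.53 (median -0.85) in WT controls and -0.59 to -0.16 (median -0.38) with Mitsui-7, and rose by 0.42 ± 0.08 (adjusted p = 0.00061). The overlap was small. Rsph10b rose by 0.62, Rsph4a, also of the spoke head, by 0.63 and Rsph3 by 0.33. Rsph6a, whose known role is in sperm, had the smallest difference in WT rats, -0.05 ± 0.34.

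The Cfap genes, named for cilia and flagella associated proteins, were the largest family, with 29 tested. In WT Mitsui-7 rats 10 rose, and in p53het rats 6 rose: Cfap126, Cfap157, Cfap300, Cfap53, Cfap57 and Cfap77. Cfap126, which acts at basal bodies, ran from -1.91 to -1.39 (median -1.62) in WT controls and -1.31 to -0.66 (median -1.01) with Mitsui-7, without overlap. It rose by 0.63 ± 0.10 (adjusted p = 2.0e-05) in WT and 0.46 ± 0.10 (adjusted p = 0.0014) in p53het rats. Cfap77 and Cfap157 rose by 0.71 and 0.78 in WT and 0.61 and 0.58 in p53het rats. Cfap43, a part of the tether of an inner dynein arm, rose by 0.94 ± 0.19 in WT rats (adjusted p = 0.00074), and its 0.50 ± 0.19 in p53het rats did not pass (adjusted p = 0.091). Cfap53 rose by 1.02 and 0.92. It was dim, as was Cfap300, and each was above background in 5 of 6 p53het controls. Cfap410, whose protein sits at the ciliary base, had the smallest WT difference (0.00 ± 0.08).

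Intraflagellar transport moves cargo along cilia of all kinds, not motile ones alone. Of 14 Ift genes 4 rose in WT Mitsui-7 rats, Ift80, Ift81, Ift74 and Ift22. They belong to the outward-moving complex B, as do most of the 14. In p53het rats 2 rose, Ift80 and Ift22. Ift80 ran from -4.05 to -3.66 (median -3.81) in WT controls and -3.35 to -3.09 (median -3.25) with Mitsui-7, and rose by 0.62 ± 0.09 (adjusted p = 1.8e-05) in WT and 0.37 ± 0.09 (adjusted p = 0.0084) in p53het rats. The complex A genes Ift122, Ift140 and Ift43 differed by -0.05, 0.02 and -0.06 in WT rats. The remaining complex B genes did not pass in WT rats either. Among them, Ift46 had mean levels of -1.79 in controls and -1.84 with Mitsui-7, and Ift52 of 0.94 and 0.96. Others were not flat: Ift57 had mean levels of -4.948 and -4.505, and Ift27 of 1.40 and 1.62. A difference between the complexes was not tested. The family's median was 0.15 in WT and 0.08 in p53het rats, the lowest of the families in WT rats. A list of 38 BBSome and ciliary gate genes, likewise shared with non-motile cilia, had a median of 0.08 in WT rats, with 9 rising and 0 falling.

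Of the remaining members, Dynlrb2, a dynein light chain of ciliated cells, ran from 0.80 to 1.60 (median 1.00) in WT controls and 1.59 to 2.36 (median 1.91) with Mitsui-7. It rose by 0.84 ± 0.19 (adjusted p = 0.0019) in WT and 0.65 ± 0.19 (adjusted p = 0.019) in p53het rats, while its paralog Dynlrb1, which serves cytoplasmic dynein in all cells, differed by -0.02 and -0.03. The central pair gene Spag17 rose by 0.65 ± 0.17 in WT rats (adjusted p = 0.0085), and Spag6, of the same structure, did not pass (0.68 ± 0.25, adjusted p = 0.066). Tppp3, a tubulin-binding protein, went the other way. It ran from 4.79 to 5.17 (median 4.95) in p53het controls and 4.43 to 4.89 (median 4.70) with Mitsui-7, and fell by 0.30 ± 0.10 (adjusted p = 0.039). Its WT difference of -0.25 did not pass (adjusted p = 0.079), and scaling to array medians, among others, ended the p53het call.

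Genes outside the name rule moved alongside. Of 32 ciliated cell markers, 21 rose with Mitsui-7 in WT rats and 11 in p53het rats, and 0 fell; the medians were 0.60 and 0.36. Riiad1 rose by 0.98 and 0.78, Ropn1l by 1.17 and 0.96, and Morn5 by 1.32 and 1.18. With NM-403, 2 of the 32 rose in WT rats, Morn2 by 0.40 and Riiad1 by 0.39. Of 19 microtubule inner proteins and other axonemal genes 12 rose in WT and 5 in p53het rats, and of 13 nexin link and central pair genes 6 and 3 rose.

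Markers of other lung cells also differed. The basal cell list had 5 of 11 higher in WT and 4 in p53het rats with Mitsui-7, led by Aqp3 (3.85 and 3.64) and Krt17 (2.78 and 3.08), while Krt5 did not pass (0.42 and 0.09). The mean level of that list ran from -4.93 to -4.33 in WT controls and -3.90 to -3.02 with Mitsui-7. Of 17 secretory cell genes 9 rose and 3 fell in WT rats, and the list's level ran from -2.21 to -1.29 in controls and -0.85 to -0.52 with Mitsui-7. Of 13 macrophage genes 7 rose in WT rats, and of 12 endothelial genes 9 fell. Smooth muscle genes, of the airway and vessel wall, had 0 of 9 past the threshold with Mitsui-7 in either genotype. At an unadjusted p under 0.05 the numbers were 0 and 2. Of 10 cartilage genes 1 rose and 1 fell in WT rats, near the 8.41% and 5.56% of all genes. The part of these cell mixtures in the cilium gene differences was not tested.

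The 2 nanotubes were compared directly at the same dose and day. In WT rats 17 cilium genes were higher with Mitsui-7 than with NM-403 and 0 lower, against 3.33% of all genes past the threshold, 2.78% higher and 0.552% lower, with a median difference of 0.30. They were led by Foxn4 (1.52 ± 0.26, adjusted p = 0.00039), Ift80 (0.54 ± 0.09, adjusted p = 0.00044), Dnai2 (0.76 ± 0.14, adjusted p = 0.00069), Cfap157 (0.66 ± 0.13) and Tekt1 (0.57 ± 0.12). In p53het rats 4 were higher and 0 lower, against 1.37% of all genes, 1.09% higher and 0.278% lower: Foxn4 (2.06 ± 0.28), Ccno (1.32 ± 0.19), Cfap157 (0.55 ± 0.14) and Foxj1 (0.49 ± 0.13). The WT number moved between 7 (array median scaling, or only these 2 groups in the fit) and 27 (slide as a random block). These comparisons share their Mitsui-7 rats with the comparisons against control.

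No genotype difference passed the test. Between p53het and WT controls 0 of 79 cilium genes passed, as did 0% of all genes (at an unadjusted p under 0.05, 3 of 79 and 1.97% of all genes), with a median of -0.08. For the genotype difference in the Mitsui-7 response, 0 of 79 and 0% of all genes passed, with 5 of 79 and 2.98% of all genes at an unadjusted p under 0.05. The Mitsui-7 difference was smaller in p53het than in WT rats for 67 of the 79 genes and for 61.1% of all genes, numbers that move with the scaling. The median of the difference between the responses was -0.19 for the 79 and -0.05 for all genes. With quantile scaling these medians were -0.13 and 0.02, with 59 of 79 genes below 0, and with array medians -0.08 and 0.06, with 52 of 79 below 0. The authors' values gave -0.11 for 37 cilium genes and 0.06 for all genes. The sign for all genes thus turned under these 3 scalings, and the size for the cilium genes fell there. Other settings did not lower it. With normexp correction the medians were -0.20 for the cilium genes and -0.09 for all genes, with 70 of 79 below 0. Array weights gave -0.21 for the cilium genes, and slide as a fixed or random block gave -0.23. For Dnai2 the difference between the responses was -0.56, with an unadjusted 95% interval of -0.96 to -0.16. Dnai2 is 1 of 79 genes looked at, and its difference did not pass after adjustment, so no genotype difference is read from it. For Foxn4 the difference was 0.91, but 0.29 with normexp correction, and 3 of the 6 p53het controls were not well above background, so no genotype difference is read from it. For Foxj1 it was -0.04 (-0.38 to 0.31) and for Ccno 0.04 (-0.49 to 0.57), so that responses differing by up to these bounds are not separated here. For NM-403 the difference between genotypes passed for 0 of 79 and 0% of all genes (3 of 79 and 1.69% of all genes at an unadjusted p under 0.05).

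**Figure D4:**
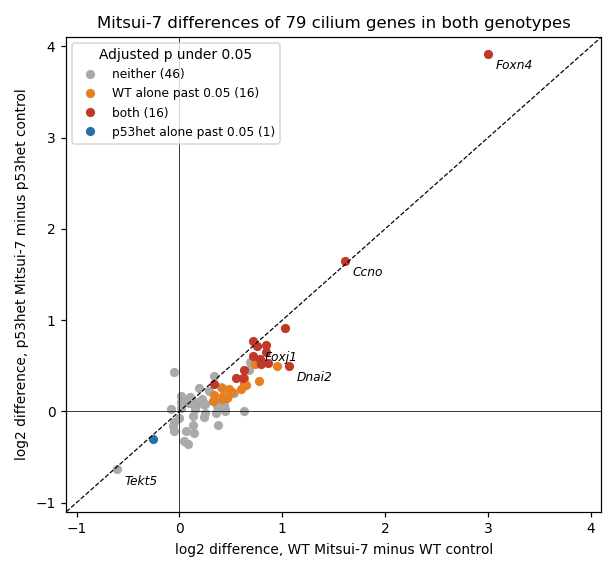
Log2 difference of each of the 79 cilium genes with Mitsui-7 in WT rats (x axis) and p53het rats (y axis); the dashed line marks equal differences and colours mark which passed an adjusted p of 0.05. Of the 79 points 67 lie below the line in the scaling shown, against 59 with quantile scaling, 52 with array medians and 70 with normexp correction. Foxn4, which was dim in p53het controls, lies above it.

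Replicate spread was modest for these genes. The within-group SD of the 74 genes above background on all arrays had a median of 0.25, against 0.30 over all genes kept, and ranged from 0.10 to 0.63. It was lowest for the transport genes (median 0.20) and the tektins (median 0.20). The smallest rise called in WT Mitsui-7 rats was that of Rsph3 (0.33 ± 0.11).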

How the data were processed

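Arrays were scanned and read with Agilent Feature Extraction 12.0.1.1, per the file headers. The deposited spot intensity used here is the processed signal, which that software had background-subtracted and detrended; it was not scaled between arrays. Flagged and control spots were left out, log2 values were taken relative to each array's 75th percentile, spots of a probe were averaged, and each gene name took its brightest probe. A gene was kept if well above background on at least 5 arrays. One limma 3.58.1 model (R 4.3.3) with a mean per group gave 9 comparisons, with Benjamini-Hochberg adjustment over 24468 genes; the fit was tested on simulated data. The number of arrays limits precision, since arrays give no counts.

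The authors' deposited table of log2 values (11555 probes, 37 of the cilium genes) is centred per probe and was used as an alternative; its differences between arrays correlated with the scanner values at 0.991, and its scaling between arrays is unknown. Column medians ran from -0.083 to 0.069. Other alternatives were quantile, median and normexp processing, the filter, the probe choice, array weights, slide or replicate number as a block, fewer samples, and leaving out each array. Named genes are the regulators, Dynlrb2, Tppp3, Spag6 and Spag17, the family members with the smallest adjusted p or smallest difference, and those called in other comparisons; other lists give up to 4 called genes and a few chosen after their values were seen. The members and lists were chosen with earlier results of these data known. Promoter sequences are from RefSeq (GRCr8).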

Additional observations from a re-analysis of the deposited data

Results flagged for a closer look

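Within groups of 5 or 6 rats, 8 of 204 sets of values for named genes (3.92%) had 1 rat far from the others by Dixon's test at the 95% level, and chance alone flags about 5% of groups. Dnai2 was low in WT NM-403 replicate 3 (-2.641, next -2.242). Tekt1 was low in p53het Mitsui-7 replicate 2 (-3.828, next -3.539). Tekt5 was high in WT NM-403 replicate 5 (-5.186, next -5.472) and in p53het NM-403 replicate 5 (-3.132, next -5.016). In that p53het NM-403 rat, Cfap47 (-2.621, next -5.5) and Ift88 (-1.848, next -3.119) were high as well. Both lay outside the named genes tested here. Ift74 was high in WT Mitsui-7 replicate 5 (-0.841, next -0.974) and in p53het control replicate 3 (-1.186, next -1.372). Dnaaf4 was low in p53het Mitsui-7 replicate 5 (-6.191, next -5.963), and Dnaaf2 was high in WT control replicate 6 (-2.396, next -2.637).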

How the results depend on the processing

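No called difference of a named cilium gene changed sign under an alternative run, but medians near 0 did: the p53het NM-403 median of the 79 genes (0.02) was -0.05 with normexp correction and -0.01 at its lowest with 1 array left out, and the WT Mitsui-7 median of all genes (0.03) was -0.07 with quantile scaling, -0.05 with array medians and -0.05 in the authors' values. The number of cilium genes past the threshold left the range of 1.5 times its main value as follows. The authors' values, which hold 37 of the genes, gave 14 for WT Mitsui-7 against control (32), 0 for WT NM-403 (2), 9 for p53het Mitsui-7 (17), 0 for p53het NM-403 (1), 7 for WT Mitsui-7 against NM-403 (17) and 2 for p53het Mitsui-7 against NM-403 (4). Normexp correction gave 11 for p53het Mitsui-7, 0 for p53het NM-403 and 2 for p53het Mitsui-7 against NM-403. Slide as a fixed or random block gave 5 or 4 for WT NM-403 and 26 or 27 for WT Mitsui-7 against NM-403. Fitting only the groups compared gave 1 for WT NM-403, 10 for p53het Mitsui-7, and 7 and 2 for the direct comparisons in WT and p53het rats. Keeping only genes above background on all arrays, which leaves out Foxn4, gave 1 for WT NM-403 and 0 for p53het NM-403. Array weights gave 5 for p53het NM-403 and 7 for p53het Mitsui-7 against NM-403. Array median scaling gave 7 for WT Mitsui-7 against NM-403; quantile scaling and no filter gave 2 for p53het Mitsui-7 against NM-403. Apart from the smaller sets of genes or samples, the cause was not tested.

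Leaving out 1 array at a time gave 28 to 34 genes for WT Mitsui-7, 1 to 3 for WT NM-403, 13 to 19 for p53het Mitsui-7, 1 for p53het NM-403, 8 to 20 and 2 to 5 for the direct comparisons, and 0 for the 3 genotype comparisons. WT NM-403 fell to 1 without WT control replicate 3. The WT direct comparison fell to 8 and 9 without Mitsui-7 replicates 1 and 5, and to 11 and 10 without NM-403 replicates 4 and 5. The p53het one fell to 2 without Mitsui-7 replicate 1, 5 or 6 or NM-403 replicate 2 or 5. With the replicate number as a block the counts were 32, 2, 17, 1, 14, 3, 0, 0 and 0 in the order in which the comparisons are given above; rats with the same number shared only the number (mean correlation of deviations 0.030 over 85 pairs, from -0.574 to 0.693). Among all genes, higher calls made up 60.2% of WT Mitsui-7 calls, but 44.3% with quantile scaling, 43.1% with array medians and 36.9% in the authors' values, while the median of the cilium genes stayed above 0 (0.30, 0.30 and 0.34). In p53het NM-403 normexp moved the median of all genes to -0.15. Dim signal limits Foxn4 in p53het controls, Cfap74 (21 of 35 arrays above background), Cfap300 (32), Cfap53 and Cfap61 (34 each) and the 3 genes not kept. Outside the name rule it limits Stil and Krt5 (28 of 35 arrays each).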
